A study of Mus musculus with 2 samples.

Results

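The 8 genes described here encode the hypoxia-inducible factors (HIF) and the proteins that make them answer to oxygen, and they were taken by symbol from 43346 annotated genes in the tables. They are the alpha subunits Hif1a and Epas1, their common partner Arnt, the prolyl hydroxylases Egln1, Egln2 and Egln3, the asparaginyl hydroxylase Hif1an, and Vhl, the substrate receptor of a ubiquitin ligase. Each symbol matched 1 gene identifier. The cells were megakaryocyte-erythroid progenitors (MEP), which give rise to red cells and platelet-producing megakaryocytes, isolated as primary cells, the mice being C57BL/6J males of 5 to 6 weeks. Total RNA above 200 bases was sequenced in 2 libraries of 100 cells each, labelled biological replicates 1 and 2, which have separate biosample records and 1 donor record. The labels give 1 group and no treatment, so the values are levels in MEP, no test between conditions was possible, and the spread between the libraries may be technical.

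In cells with enough oxygen, the prolyl hydroxylases add a hydroxyl group to prolines of the alpha subunits, VHL binds the marked protein, and the alpha subunit is ubiquitinated and degraded. The asparaginyl hydroxylase modifies the C-terminal activation domain and blocks its binding to the coactivators p300 and CBP. When oxygen is short these enzymes slow, the alpha subunit accumulates, pairs with ARNT and activates genes that hold the letters ACGTG or GCGTG in a hypoxia response element. In the red cell system the pathway is known mainly for erythropoietin production outside the marrow, where EPAS1 is the main alpha subunit. Since control of the alpha subunits is largely at the level of protein, transcript levels do not measure HIF activity.

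Replicates 1 and 2 had 30016974 and 51510347 expected counts, with 13518448 and 25799923 on nuclear genes that code for protein. All 7 MEP markers (Gata1, Klf1, Epor, Kit, Gfi1b, Car1 and Itga2b) reached 10 TPM in both libraries. TPM is a transcript's share of the library, corrected for length. Genes of other cells separated the libraries: the summed level of 10 granulocyte and monocyte markers was 1919 and 6.84 TPM in replicates 1 and 2, with 6 of the 10 at 0 counts in replicate 2. The summed level of 8 B cell markers was 7.14 and 127 TPM in replicates 1 and 2, with Vpreb1 and Ms4a1 at 0 counts in replicate 1. The 8 endothelial and stromal markers summed to 7.89 and 7.38 TPM, and the 4 T and NK cell markers to 44.9 and 34.6 TPM, in replicates 1 and 2. The part of these other cells in the values below was not tested.

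The sequences that bear most on the results are those of Hif1a, since the libraries differed in the estimated leading Hif1a transcript. The annotation gives the gene 2 long coding transcripts with separate starts, Hif1a-202 at the upstream exon and Hif1a-201 at an exon 6529 bases downstream. Both splice into the same following exon, where the coding part of Hif1a-202 begins. The coding starts, from GENCODE M21 transcripts of GRCm38, are printed with the bases that both transcripts translate in capitals.
Hif1a-201: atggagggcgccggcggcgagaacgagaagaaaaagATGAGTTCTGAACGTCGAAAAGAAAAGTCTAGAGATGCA
Hif1a-202: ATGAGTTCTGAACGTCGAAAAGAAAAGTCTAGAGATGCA
Hif1a-201 thus has 36 coding bases ahead of the start codon of Hif1a-202. It also holds 42 coding bases inside the gene (chromosome 12, 73941688 to 73941729) that Hif1a-202 lacks, in capitals here with 15 bases on each side.
Hif1a-201 internal: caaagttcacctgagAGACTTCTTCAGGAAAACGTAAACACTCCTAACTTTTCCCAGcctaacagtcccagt
The coding part had 836 codons with the stop left out in Hif1a-201 and 810 in Hif1a-202.

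Of the 2 alpha subunit genes among the 8, Hif1a had counts and Epas1 had none. Hif1a (ENSMUSG00000021109, mm10 chromosome 12, 73901375 to 73947530, plus strand) was at 11.67 and 8.82 TPM in replicates 1 and 2, from 820 and 1002 expected counts, a mean of 10.2 ± 2.02 TPM (SD, n = 2). The libraries were close, with replicate 1 the higher. Epas1 (mm10 chromosome 17, 86753700 to 86833410, plus strand), which encodes HIF-2 alpha and is known for its high level in endothelium, had 0 counts in both libraries. A count of 0 allows up to 3 counts, which for a transcript of this length is 0.0264 and 0.0151 TPM in replicates 1 and 2. Against that floor per library, whole-gene Hif1a was at least 442-fold higher than Epas1 in replicate 1 and at least 584-fold higher in replicate 2. The coding transcripts of Hif1a alone were at 7.96 and 5.85 TPM in replicates 1 and 2, so a bound on them is lower. Of protein-coding nuclear genes, 39.9% had 0 counts in both libraries, so a gene at 0 is common in these tables. Endothelial markers were mixed: Cdh5 had 0 and 1 counts in replicates 1 and 2, Kdr 0 and 48, Tek 45 and 37, and Pecam1 295 and 507.

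Arnt, the constitutive beta subunit with which either alpha subunit pairs, was the highest of the 8 genes by whole-gene TPM. It lies on mm10 chromosome 3, 95434388 to 95497240, plus strand. Its level was 16.59 and 21.04 TPM in replicates 1 and 2, a mean of 18.8 ± 3.15 TPM (SD, n = 2). By whole-gene TPM Arnt exceeded Hif1a by 1.42 and 2.39 times in replicates 1 and 2. On coding transcripts alone Arnt was still the highest of the 8, at 9.52 and 16.01 TPM. Its leading coding transcript Arnt-202, at 7.04 and 10.20 TPM, was below the coding transcripts of Hif1a in replicate 1, at 7.96 TPM. In replicate 2 Arnt-202 was below Egln2-201, at 11.10 TPM. The coding level of Arnt includes the short Arnt-204, at 2.48 and 5.81 TPM.

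Of the prolyl hydroxylases, Egln1 and Egln2 were above 5 TPM in both libraries and Egln3 was under 1 TPM in both. Egln2 (PHD1; mm10 chromosome 7, 27158658 to 27166802, minus strand) was at 10.06 and 11.10 TPM in replicates 1 and 2, a mean of 10.6 ± 0.735 TPM (SD, n = 2). Egln1 (PHD2; mm10 chromosome 8, 124908587 to 124949324, minus strand), known as the main enzyme acting on HIF-1 alpha in normal oxygen, was at 5.43 and 7.99 TPM, a mean of 6.71 ± 1.81 TPM (SD, n = 2). By whole-gene TPM Egln2 was the higher of the pair, by 1.85 and 1.39 times in replicates 1 and 2. On coding transcripts alone the order turned in replicate 1, with Egln2 at 5.29 and Egln1 at 5.43 TPM, and held in replicate 2, at 11.10 and 7.99 TPM. Egln3 (PHD3; mm10 chromosome 12, 54178981 to 54203860, minus strand), which is itself a known HIF target, had 2 counts in replicate 1, at 0.04 TPM, and 52 counts in replicate 2, at 0.54 TPM. The ratio of replicate 2 to replicate 1 was 13.5 for Egln3, with a 95% exact interval of 3.55 to 114 that covers counting error only. Even in replicate 2 Egln1 exceeded Egln3 by 14.8 times.

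Hif1an, the asparaginyl hydroxylase also called FIH (mm10 chromosome 19, 44562850 to 44576274, plus strand), was at 7.60 and 6.66 TPM in replicates 1 and 2, a mean of 7.13 ± 0.665 TPM (SD, n = 2). Vhl (mm10 chromosome 6, 113623959 to 113631633, plus strand) was the lowest member above 1 TPM, at 5.18 and 3.64 TPM, a mean of 4.41 ± 1.09 TPM (SD, n = 2). By whole-gene TPM Hif1a exceeded Vhl by 2.25 and 2.42 times in replicates 1 and 2. On coding transcripts alone Hif1a was at 7.96 and 5.85 TPM and Vhl at 4.58 and 3.64 TPM, so the ratios were smaller.

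In order of mean level the genes ran Arnt, Egln2, Hif1a, Hif1an, Egln1, Vhl, Egln3 and Epas1. Neither Egln2 and Hif1a nor Hif1an and Egln1 could be ordered, since each pair changed places between the libraries and its means differed by less than 1 SD. By whole-gene TPM the other neighbours kept their order in both libraries without overlap of the values. On coding transcripts alone Hif1a, at 7.96 and 5.85 TPM in replicates 1 and 2, overlapped Hif1an, at 6.48 and 5.23 TPM. Egln1, at 7.99 TPM in replicate 2, was then above Hif1a in that library. For Egln3 and Epas1, however, the means differed by 0.29 TPM, less than the SD of Egln3, and the authors' credibility bounds overlapped in replicate 1. Egln1 and Vhl stood close in replicate 1, at 5.43 and 5.18 TPM, where the authors' credibility bounds for the pair overlapped. At 10 TPM in both libraries stood 2 of the 8 members, Arnt and Egln2, against 24.7% of protein-coding nuclear genes. At 1 TPM in both libraries stood 6 of 8, against 44.2% of those genes. The median over the 8 members was 6.51 and 7.33 TPM in replicates 1 and 2, and over all 21461 protein-coding nuclear genes it was 0.38 and 0.36 TPM.

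**Figure D1:**
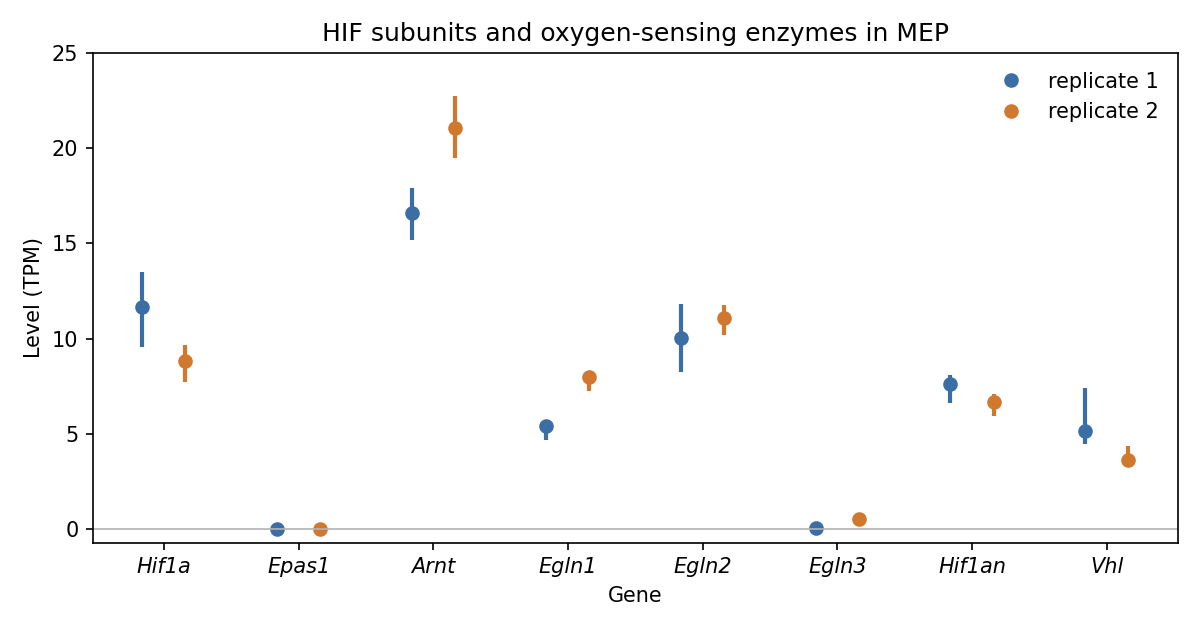
Level of each of the 8 genes in TPM in both libraries. Points are the deposited TPM of replicate 1 (blue) and replicate 2 (orange), and lines are the authors' credibility bounds. Arnt is highest, at 16.59 and 21.04 TPM, Egln3 is at 0.04 and 0.54 TPM, and Epas1 is at 0 in both.

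At the level of whole genes the libraries differed by less than 2-fold in the members with a mean of at least 1 TPM. Egln3, near the floor, differed by 13.5-fold in TPM. On the scale of log2(TPM + 1), replicate 2 minus replicate 1, the differences were -0.37 for Hif1a, -0.41 for Vhl and -0.17 for Hif1an, and 0.33 for Arnt, 0.48 for Egln1, 0.13 for Egln2 and 0.57 for Egln3. For Arnt and Egln2 the sign depended on the scale used. Of the 6 members with a mean of at least 1 TPM, none was past 2-fold, against 7.61% of 9982 protein-coding nuclear genes at that mean. The median difference over those 9982 genes was 0.18 with an SD of 0.58, so the 6 members lay within about 1 SD of that median. The pseudocount of 1 understates the difference of Egln3, which lies under it in both libraries. By counting error alone, the 95% exact interval of the ratio of replicate 2 to replicate 1 was 0.688 to 0.83 for Hif1a, 1.31 to 1.66 for Egln1 and 0.959 to 1.27 for Egln2. The Egln2 interval is of the whole gene, and its coding transcripts alone were at 5.29 and 11.10 TPM in replicates 1 and 2. With 1 library on each side, such a ratio compares these libraries and not a condition. Fewer cells of a type and less RNA per cell cannot be told apart in pools of cells.

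The like whole-gene levels of Hif1a were made up of different transcripts. Hif1a-201 made up 56.53% of the gene's TPM in replicate 1 and 4.99% in replicate 2, while Hif1a-202 made up 11.62% and 61.41%. As levels, Hif1a-201 was at 6.60 TPM (credibility bounds 5.65 to 6.96) in replicate 1 and 0.44 TPM (bounds 0.262 to 0.685) in replicate 2. Hif1a-202 was at 1.36 TPM (bounds 0.829 to 1.85) in replicate 1 and 5.41 TPM (bounds 4.81 to 5.62) in replicate 2. For each transcript the bounds of the libraries did not overlap. By expected counts the contrast was larger: Hif1a-201 took 81.1% of the gene's counts in replicate 1 and 7.73% in replicate 2, and Hif1a-202 took 15.4% and 88.0%.

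The 2 transcripts share 4261 bases, so the split between them rests on few positions. Apart from the 42 internal bases, Hif1a-201 is set apart by 421 bases of its opening exon (73907904 to 73908324), of which 35 are coding. Hif1a-202 is set apart by 124 bases of its own opening exon (73901375 to 73901498), all noncoding, and by the junction that skips the 42 bases. Mouse Hif1a is known to have alternative opening exons of this kind. The shares are estimates from short reads.

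**Figure D2:**
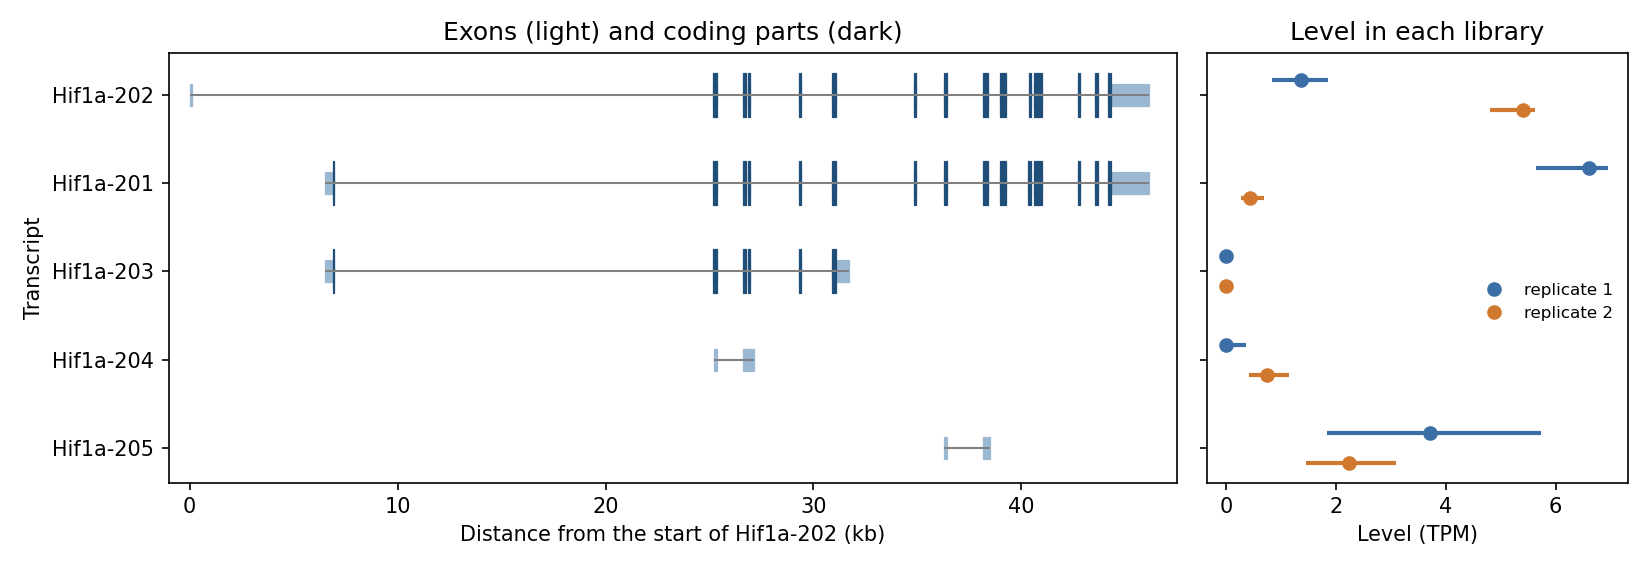
Exons (light) and coding parts (dark) of the 5 annotated Hif1a transcripts by distance in kb from the start of Hif1a-202, and the level of each in TPM with the authors' credibility bounds. Hif1a-201 leads in replicate 1 (blue, 6.60 TPM) and Hif1a-202 in replicate 2 (orange, 5.41 TPM).

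How often other genes did the same sets the scale for this difference. The leading transcript differed between the libraries for 31.8% of 7417 protein-coding genes with several transcripts and a mean of at least 1 TPM, and for 29.3% of the 3237 among them with 500 to 2000 mean counts. Of the 5 members with several transcripts, the leading one differed for Hif1a and was the same for Arnt, Egln2, Hif1an and Vhl. The drop of 51.54 percentage points in the share of Hif1a-201 was matched or exceeded by the transcript leading in replicate 1 in 9.14% of the 7417 genes and in 4.54% of the 3237 genes of like depth. The median drop was 4.75 points in both sets. The granulocyte and B cell markers moved between the same 2 libraries, with sums of 1919 against 6.84 TPM and 7.14 against 127 TPM in replicates 1 and 2, and their part in the Hif1a difference was not tested.

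Short and intron-retaining transcripts took a sizeable part of several members. Hif1a-205, a noncoding transcript of 484 bases, stood at 3.72 and 2.23 TPM in replicates 1 and 2, from 28.4 and 27.4 counts, which is 31.85% and 25.24% of the gene's TPM. Hif1a-204, with a retained intron, was at 0 and 0.74 TPM, and Hif1a-203 had 0 counts in both. The coding transcripts of Hif1a together came to 7.96 and 5.85 TPM in replicates 1 and 2. Gm49321, a gene of GENCODE M21 that overlaps Hif1a on the same strand, is not among the genes analysed here, so the Hif1a level is uncertain by whatever reads it gives. Also absent are Gm42672, a processed pseudogene that overlaps Arnt on the same strand, and AC096777.1, which overlaps Epas1 on the same strand. The Arnt level is uncertain in the same way. The antisense gene Gm15283 was listed at 0 TPM in both libraries.

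Egln2 also differed by transcript beneath like totals. Its full-length coding transcript Egln2-201 was at 5.29 TPM (bounds 4.34 to 5.70) in replicate 1 and 11.10 TPM (bounds 10.01 to 11.5) in replicate 2, 2.10 times higher. The rest of the gene's level in replicate 1 came from the short noncoding transcripts Egln2-203 and Egln2-204, at 2.89 and 1.88 TPM from 20.3 and 12.5 counts. Both had 0 counts in replicate 2. These 32.8 counts made up 47.4% of the gene's TPM in replicate 1, since a short transcript turns few counts into a high TPM. The whole-gene ratio of Egln2 to Egln1 in replicate 1 includes them.

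Arnt had 11 annotated transcripts, led in both libraries by the coding Arnt-202 at 7.04 and 10.20 TPM, which was 42.40% and 48.49% of the gene. The short coding Arnt-204, with a coding part of 228 bases, made up 14.94% and 27.61%. Of the Arnt transcripts, those with retained introns differed in opposite directions: Arnt-209 was at 24.05% in replicate 1 and 0% in replicate 2, Arnt-210 at 10.59% and 0.75%, and Arnt-207 at 0% and 13.66%. All coding transcripts of Arnt together were at 9.52 and 16.01 TPM in replicates 1 and 2. Hif1an-201, the coding transcript of Hif1an, held 85.21% and 78.59%, the rest being the intron-retaining Hif1an-202 at 14.79% and 21.41%. Vhl-201 held 88.55% and 100%. Epas1, Egln1 and Egln3 have 1 annotated transcript each in the tables.

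**Figure D3:**
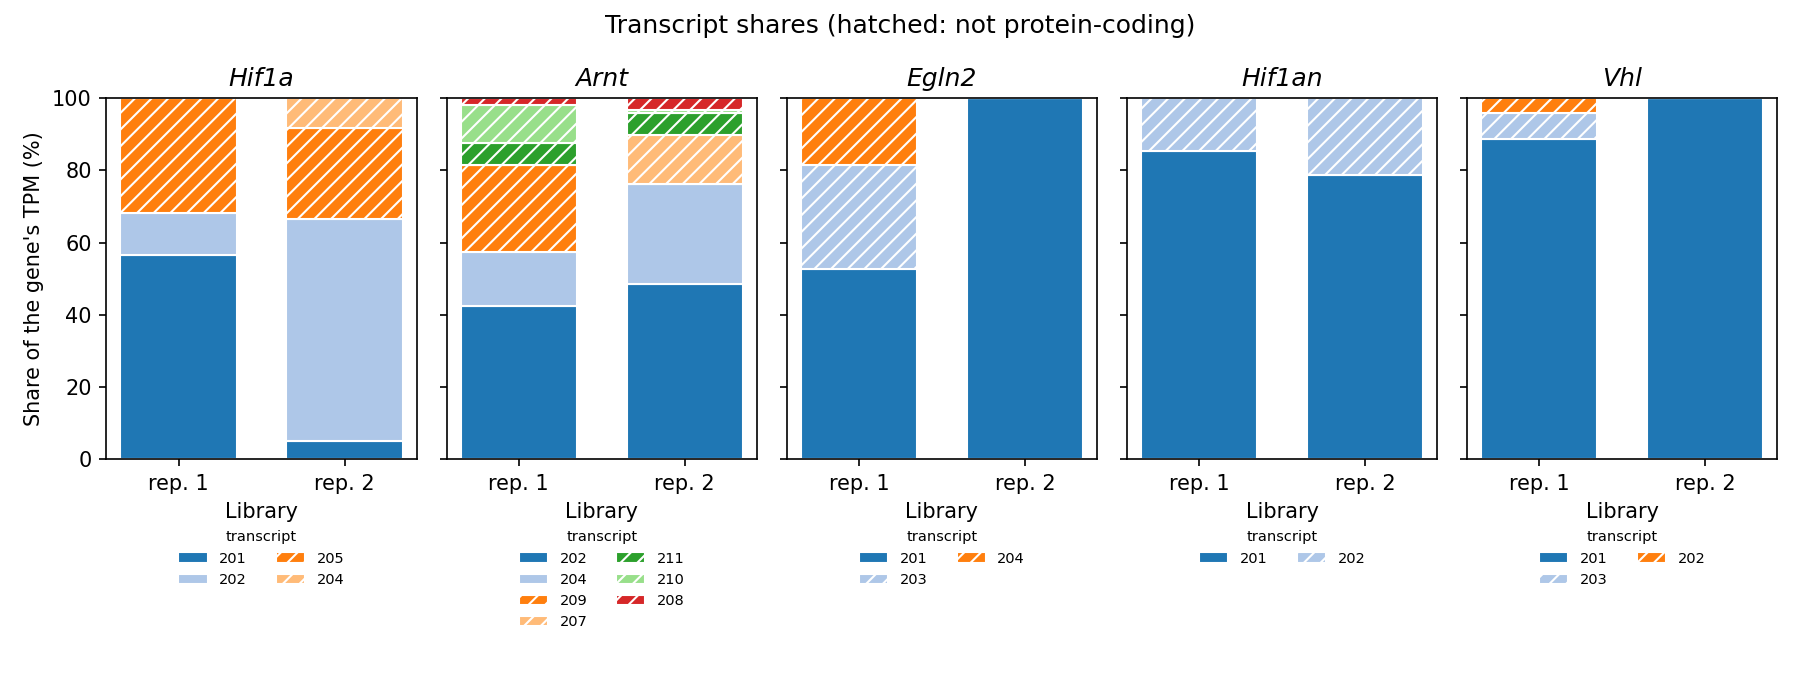
Share of each gene's TPM in its transcripts, in percent, for the 5 members with several transcripts in replicates 1 and 2. Hatched parts are transcripts not annotated as protein-coding. Hif1a-201 is at 56.53% and 4.99% in replicates 1 and 2, and Egln2-201 is at 52.59% and 100%.

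The promoters of the prolyl hydroxylases are shown because Egln1 and Egln3 are known as targets of the factor they restrain. That of Hif1a is shown because the estimated leading transcripts of the libraries have separate annotated starts. Reads at these starts were not examined. The sequences are the 250 bases before a RefSeq start on GRCm38.p6, read on the gene's strand, with ACGTG and GCGTG and their reverse complements CACGT and CACGC in capitals. Overlapping matches are counted separately.
Hif1a, chr12:73907617-73907866, plus strand: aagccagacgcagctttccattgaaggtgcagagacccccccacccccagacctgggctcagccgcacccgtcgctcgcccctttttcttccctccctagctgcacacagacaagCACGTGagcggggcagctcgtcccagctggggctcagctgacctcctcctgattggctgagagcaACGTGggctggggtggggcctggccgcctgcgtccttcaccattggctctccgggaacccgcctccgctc
Egln1, chr8:124949255-124949504, minus strand: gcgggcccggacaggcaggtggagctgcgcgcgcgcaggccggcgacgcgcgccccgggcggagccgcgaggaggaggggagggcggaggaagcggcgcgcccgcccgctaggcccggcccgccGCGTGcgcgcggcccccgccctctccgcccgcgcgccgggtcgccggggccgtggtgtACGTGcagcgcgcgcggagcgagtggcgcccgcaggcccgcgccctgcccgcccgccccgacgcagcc
Egln2, chr7:27166803-27167052, minus strand: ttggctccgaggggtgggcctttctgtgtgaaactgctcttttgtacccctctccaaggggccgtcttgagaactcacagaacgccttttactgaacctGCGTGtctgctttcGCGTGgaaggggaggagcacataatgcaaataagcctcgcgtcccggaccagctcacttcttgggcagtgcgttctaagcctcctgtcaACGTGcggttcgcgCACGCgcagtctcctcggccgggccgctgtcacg
Egln3, chr12:54203875-54204124, minus strand: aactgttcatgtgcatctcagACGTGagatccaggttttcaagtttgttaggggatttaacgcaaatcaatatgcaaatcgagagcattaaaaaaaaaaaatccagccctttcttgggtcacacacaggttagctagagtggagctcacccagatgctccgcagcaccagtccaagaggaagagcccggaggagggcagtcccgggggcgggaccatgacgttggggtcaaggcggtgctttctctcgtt
The Hif1a window lies just before the start of Hif1a-201, and held 3 matches, 2 of which are the overlapping strands of CACGTG. No window before the start of Hif1a-202 was used here. Egln1 held 2 matches, the printed Egln2 window 4 and Egln3 1. The Egln1 window overlaps the gene as annotated in GENCODE M21, which starts at 124949324 on the minus strand. Its ACGTG, 68 bases before the RefSeq start, lies inside that annotated gene. Egln2 has another RefSeq window (chr7:27165729-27165978) with 1 match, and the one before the start of Egln2-201 is printed.

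RefSeq windows were matched for 7 of the 8 members, all but Epas1, and 5 of the 7 held at least 1 match, Hif1an and Vhl having none. For comparison, 41.5% of 27025 genes held a match in such a window, as did 17 of 19 glucose metabolism targets and 14 of 16 other targets with a window. Shares were also high in lists of genes not chosen as targets, at 12 of 14 coactivators and stability factors and 3 of 4 VHL ligase partners. Of the remaining lists, 5 of 9 dioxygenases and 6 of 11 bHLH-PAS factors held a match. The Egln1 window was 86% G and C against 50.8% for that of Egln3, and base composition was not matched in these shares. A match describes letters and not binding.

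Around the 8 genes, the other bHLH-PAS factors, the family to which HIF subunits belong, were mostly at or near 0. Of 13, 3 reached 1 TPM in both libraries and 7 had 0 counts in both, and the list median was 0 TPM in each library. Over all protein-coding nuclear genes, 44.2% reached 1 TPM in both and 39.9% had 0 counts in both. Hif3a, the third alpha subunit, was the highest at 9.39 and 18.32 TPM in replicates 1 and 2, and was above Hif1a in replicate 2. Much of the Hif3a level came from Hif3a-203, a short transcript of 374 bases with 21.6 and 87.6 counts, named after its values were seen. The long coding Hif3a-202 was at 5.28 and 7.50 TPM. The clock factor Arntl was at 2.55 and 8.18 TPM, a ratio of 3.21 with a 95% exact interval of 2.70 to 3.83, and its partner Clock was at 1.67 and 2.26 TPM. Ahr, named after its values were seen, was at 2.16 and 0.20 TPM in replicates 1 and 2, from 98 and 42 counts.

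The partners with which VHL forms its ubiquitin ligase, and the cullin modifier genes Nedd8 and Ube2m, were all above Vhl itself in both libraries. All 6 reached 10 TPM in both libraries, against 24.7% of protein-coding nuclear genes. The medians of the 6 were 88.8 and 93.9 TPM in replicates 1 and 2. The elongin genes Elob and Eloc were at 193 ± 12.9 and 69.3 ± 12.6 TPM, the scaffold gene Cul2 at 15.2 ± 2.74 TPM and the RING protein gene Rbx1 at 40.1 ± 7.13 TPM (SD, n = 2). Nedd8, which encodes the modifier that activates cullins, was at 138 ± 27.9 TPM and its conjugating enzyme gene Ube2m at 113 ± 5.48 TPM (SD, n = 2). These partners also serve other ligases.

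All 17 genes of HIF coactivators and stability factors reached 1 TPM in both libraries and 10 of them 10 TPM, with medians of 15.6 TPM in both. Those levels were reached in both libraries by 44.2% and 24.7% of protein-coding nuclear genes. The scaffold gene Rack1 was at 1262 ± 10.2 TPM, and the chaperone genes Hsp90ab1 and Hsp90aa1 at 830 ± 55.6 and 604 ± 50.3 TPM (SD, n = 2). Commd1, a regulator of HIF stability, was at 72.21 and 34.99 TPM in replicates 1 and 2, and was the 1 gene of the 17 past 2-fold on the log2(TPM + 1) scale, against 7.61% of all genes tested. Siah2, a ubiquitin ligase gene named after its values were seen, was at 6.06 and 2.84 TPM, a ratio of 2.13 in TPM that falls short of 2-fold on that scale. Other dioxygenases that need oxygen were all above 1 TPM, with 4 of 11 at 10 TPM in both libraries, against 24.7% of protein-coding nuclear genes. The medians of these dioxygenases were 8.85 and 8.62 TPM in replicates 1 and 2. Their highest were Jmjd6 at 23.8 ± 4.09, the histone demethylase genes Kdm5a at 20.1 ± 0.53 and Kdm6a at 11.4 ± 1.61, and the DNA demethylation gene Tet3 at 18.7 ± 4.91 TPM (SD, n = 2).

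Genes known as HIF targets were uneven. Of all protein-coding nuclear genes, 44.2% reached 1 TPM and 24.7% reached 10 TPM in both libraries. Of 20 targets in glucose metabolism, 16 reached 1 TPM and 11 reached 10 TPM in both libraries, led by Gapdh at 506 ± 184, Ldha at 293 ± 23.8, Aldoa at 142 ± 1.19 and Tpi1 at 117 ± 10.6 TPM (SD, n = 2). Of 20 other targets, 11 reached 1 TPM and 5 reached 10 TPM in both, the latter near the share of all genes. The highest were the transferrin receptor gene Tfrc at 143 ± 15.9 and the mitophagy receptor gene Bnip3l at 58.0 ± 2.56, followed by Higd1a at 18.1 ± 5.29 and Cxcr4 at 14.4 ± 2.83 TPM (SD, n = 2). The hormone gene Epo, Adm, Car12 and Edn1 had 0 counts in both libraries, as did 39.9% of protein-coding nuclear genes. The medians were 16.3 and 12.6 TPM for glucose metabolism targets and 2.54 and 3.52 TPM for the others, in replicates 1 and 2. Glycolytic genes and Tfrc are also expressed without HIF, so their levels do not measure it.

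Between the libraries, 6 of the 30 targets with a mean of at least 1 TPM were past 2-fold on the log2(TPM + 1) scale, 4 higher and 2 lower in replicate 2, against 5.15% and 2.46% of protein-coding nuclear genes. These 6 were named after their values were seen. Higher in replicate 2 were Bnip3 at 1.43 and 6.67 TPM, Car9 at 1.47 and 5.54 TPM, Hk2 at 0.56 and 3.20 TPM and Pfkfb4 at 1.11 and 3.63 TPM, in replicates 1 and 2. Lower were Pkm at 8.11 and 3.47 TPM and P4ha2 at 5.35 and 0.66 TPM. The P4ha2 values rest on 58 and 31 counts and on effective lengths of 493 and 1208 bases, in replicates 1 and 2. Effective lengths also differed for Bnip3, at 1620 and 1222 bases, Car9, at 1887 and 1108 bases, and Hk2, at 5377 and 2636 bases. Those of Pfkfb4, at 3197 and 3167 bases, and Pkm, at 2296 and 2266 bases, were close. The part of length in these TPM ratios was not tested. All 6 had a mean under 10 TPM. Pkm, P4ha2 and the granulocyte and monocyte markers (1919 and 6.84 TPM) were higher in replicate 1, while Bnip3, Car9, Hk2, Pfkfb4 and the B cell markers (7.14 and 127 TPM) were higher in replicate 2. The part of other cells in these differences was not tested.

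**Figure D4:**
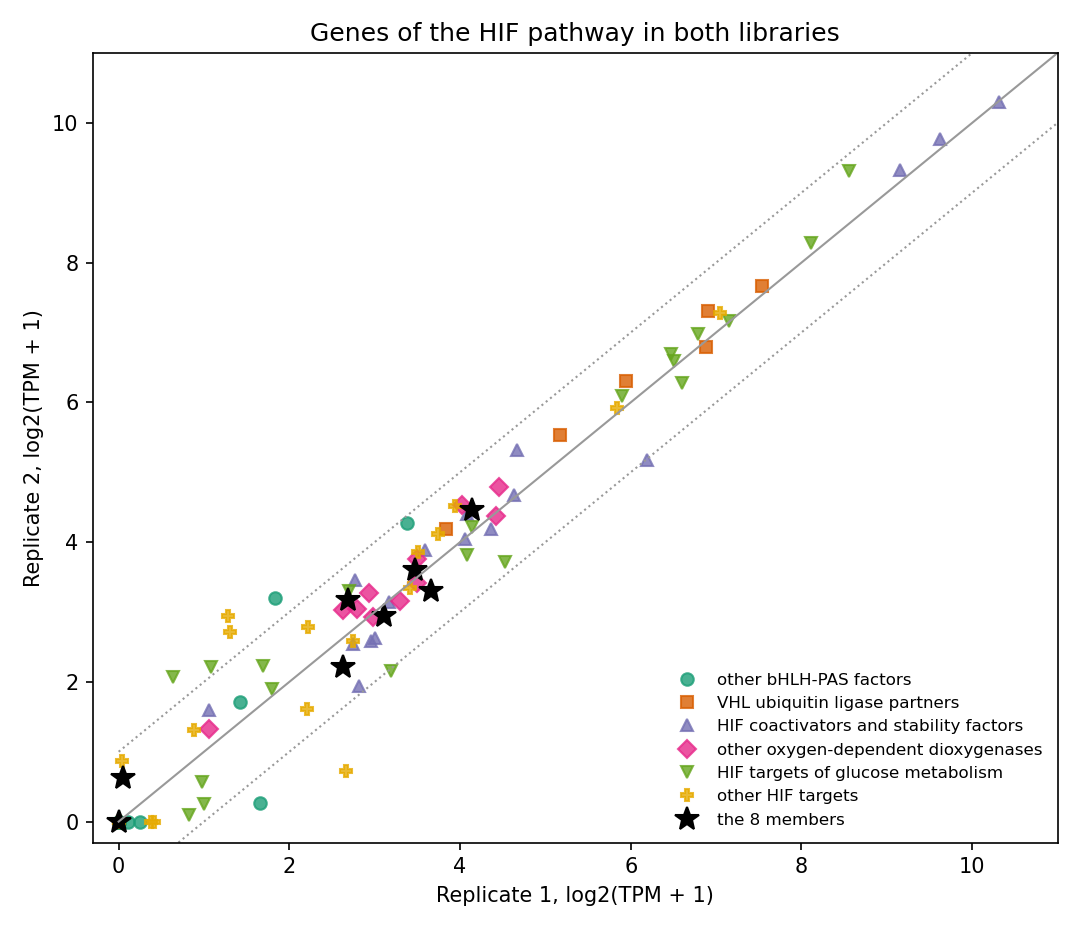
Level of each listed HIF pathway gene as log2(TPM + 1) in replicate 1 (horizontal axis) and replicate 2 (vertical axis), by list, with the 8 members as stars. The solid line marks equal levels and the dotted lines 2-fold. No member lies outside the dotted lines, while Arntl, Bnip3, Car9, Hk2 and Pfkfb4 lie above them and Ahr, Commd1, Pkm and P4ha2 below.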

How the data were processed

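Genes and transcripts were quantified by the authors against mm10 and GENCODE M4, per the README; the quantifier is not stated there. Deposited expected counts are estimated reads per feature. Deposited TPM values, and their posterior means, are scaled by effective length to a fixed sum over all features, ribosomal RNA included. The authors also give each transcript's percent of its gene. Deposited signal columns are bounds of a credibility interval of TPM whose level is not stated, and cover estimation within a library.

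GENCODE M21 on GRCm38 (mm10) gave names, biotypes and positions, matched by identifier without version. No test between groups was made. Intervals of ratios are exact (Clopper-Pearson, 95%), from rounded expected counts, and like the floor of 3 counts they cover counting error only, as reads need not be separate molecules. The libraries were no duplicates, with chi-square over degrees of freedom at 83.1 for 13337 genes. TMM factors (edgeR 4.0.16) and size factors (DESeq2 1.42.0) served as alternatives, in R 4.3.3. Other steps used Python 3.11.15. Calculations were tested on simulated data. The members and gene lists were chosen with earlier results of these data known. Named were all members, their transcripts at 10% or more, all VHL ligase partners, bHLH-PAS factors at 1 TPM in both libraries, and of each other list the 4 highest, those at 0 counts and those past 2-fold at a mean of 10 TPM. Protein sequences were not used here.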

Additional observations from a re-analysis of the deposited data

How the results depend on the processing

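Levels rest on the TPM scale. Rescaled over protein-coding nuclear genes, the list medians became 214 TPM for VHL ligase partners, 36.5 for coactivators and stability factors, 19.7 for dioxygenases, 37.1 for glucose metabolism targets and 7.65 for other targets, and 5 members reached 10 TPM in both libraries, since the divisor is smaller. On a CPM scale with TMM factors, which does not correct for length, the first 4 of these medians were 47.0, 17.1, 26.4 and 29.2. Posterior mean TPM gave 0.255 for bHLH-PAS factors, 15.03 for coactivators, 9.80 for dioxygenases and 4 for other targets; the cause was not tested. The medians of single libraries ran from 8.62 to 8.85 for dioxygenases, 12.6 to 16.3 for glucose metabolism targets and 2.54 to 3.52 for other targets. With a level minimum of 5 TPM 5 members passed, with 20 TPM 0 did, and on coding transcripts alone, an alternative chosen after seeing the data, 0 did at 10 TPM. The whole-gene Hif1a to Epas1 bounds, 442 and 584 in replicates 1 and 2, had a mean of 513, and on expected counts the mean was 304. Such a mean is not itself a bound for either library. The share of genes past 2-fold, 7.61%, was 4.97% with TMM factors, 4.95% with size factors, 4.33% without a filter and 3.23% at a mean of 10 TPM, but 11.3% with a pseudocount of 0.1 and 8.70% on rescaled TPM. Of 78 differences recomputed for members and lists, 77 kept their side of 2-fold, and Egln3 passed it, at 2.19 on the log2 scale, with a pseudocount of 0.1. That count does not follow the sign, which depended on the scale for small differences. Among others, Arnt went from 0.33 to -0.12 with TMM factors, and Egln2 from 0.13 to -0.04 on rescaled TPM. With TMM factors the median of VHL ligase partners went from 0.35 to -0.02, and that of glucose metabolism targets from 0.099 to -0.033. No paired analysis was possible because both libraries belong to 1 group. A library left out says nothing about stability where the mean rests on 2. At these depths Epas1 could not have been seen below its floor.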
